A study of Mus musculus with 18 samples.

Results

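The genes that encode proteasome subunits were examined in cultured mouse tendon cells of adult and neonatal origin. They were taken as every row of the expression table whose symbol begins with Psma, Psmb, Psmc, Psmd, Psme, Psmf or Psmg followed by a number, which gave 50 of 14391 genes, and no pseudogene name had to be removed. The 50 fell by known role into 8 outer-ring alpha subunits of the 20S core (Psma1 to Psma8), 4 beta subunits without catalytic activity (Psmb1 to Psmb4), the 3 constitutive catalytic subunits Psmb5, Psmb6 and Psmb7, the 5 interferon-induced genes Psmb8, Psmb9, Psmb10, Psme1 and Psme2, the thymic catalytic subunit Psmb11, 6 ATPases and 11 other subunits of the 19S cap, 7 assembly chaperones, 3 activators or inhibitors, and 2 symbols that are not subunits. Those 2 are Psmc3ip, a recombination cofactor named after the ATPase it binds, and Psme2b, a copy of Psme2 with 99.4% identity over 794 bp, so that reads of the copy and its parent cannot be reliably told apart.

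The study compared tendon cells (fibroblasts by their label, wild-type genotype) from adult or neonatal mice. The cells were passaged 2 times, frozen, thawed and cultured for 3 days before 1 of 3 treatments, each mixed with complete DMEM: T cell media alone, an adult stimulated supernatant, or a neonatal stimulated supernatant. The study's title ties these supernatants (SN) to factors secreted by T cells. Crossing cell age with treatment gave 6 groups of 3 libraries: adult cells in media, in adult SN and in neonatal SN, and neonatal cells in media, in adult SN and in neonatal SN. Each culture well was seeded from 4 adult or 3 neonatal tendons, so cells of several tendons were pooled. Nothing in the labels tells if the 3 libraries of a group stem from different animals or wells, and p-values then measure only the spread between these libraries, which may be technical. All 18 libraries carried the same batch label. Strain, exact ages, length of treatment and the making of the supernatants were not given.

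Poly(A)-selected RNA was sequenced in paired reads of 150 bp, and levels are given as read counts scaled to the library total (CPM) or as log2 CPM. Library depths read from the low values of the table lay between 12.7 and 17.8 M reads, so that 3 reads corresponded to 0.169 to 0.237 CPM. All 10 tendon fibroblast markers were measured, with Col1a1 at 5856 CPM or more in every library and Tnmd at 1.44 to 18.1 CPM. Scx lay at 2.04 to 19.4 CPM in adult and 127 to 384 CPM in neonatal libraries. Pdgfra lay the other way, at 101 to 222 CPM in adult and 15.8 to 61.0 CPM in neonatal libraries. In media 4 of the 10 lay higher and 4 lower in every neonatal than in every adult library. Groups did not overlap for 42.5% of all genes in that comparison. The fibroblast marker sum, mostly Col1a1, Col1a2 and Col3a1, moved with the treatment. In adult cells it was 32900 to 36160 CPM in media, 12330 to 14350 CPM with adult SN and 25910 to 34400 CPM with neonatal SN. In neonatal cells it was 30600 to 33730, 13890 to 14660 and 23980 to 27000 CPM in the same order. With adult SN 7 of the 10 markers lay lower and 1 higher than in every media library of adult cells. In neonatal cells 7 lay lower and 2 higher, against 57.6% and 57.2% of all genes separated in either direction. Dcn rose at both ages, from a mean of 167 to 292 CPM in adult and 61.8 to 283 CPM in neonatal cells. Of 8 T cell markers 4 were measured, with Cd3e, Cd3g, Cd2 and Cd5 not among the rows, and their summed level was 14.6 CPM or less in every library. Of 8 leukocyte markers 7 were measured. Endothelial markers were all measured, with sums of 59.8 to 64.4 CPM in adult and 28.3 to 35.7 CPM in neonatal cells in media. With adult SN 1 of these 6 markers lay higher and 2 lower than in every media library of adult cells. In neonatal cells 2 lay higher and 2 lower. A few libraries stood apart. The mean level of 10 type I interferon response genes was 3.38 log2 CPM in adult media library 2 against 1.82 and 1.33 in the other adult media libraries, and 3.49 in neonatal media library 1 against 0.40 and -0.11 in the other neonatal media libraries. In adult cells with neonatal SN it was 1.88 in library 3 against 3.68 and 4.35. Values without these libraries, or ranges with each library left out in turn, are given beside many of the main results they enter.

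The proteasome degrades ubiquitin-tagged proteins in a barrel of alpha and beta rings, the 20S core, whose ends are opened by the 19S cap or by smaller activators. In most cells the cutting is done by the products of Psmb5, Psmb6 and Psmb7. Under interferon-gamma, cells make Psmb8, Psmb9 and Psmb10 products, which are built into new cores in place of Psmb5, Psmb6 and Psmb7 respectively to form the immunoproteasome, and the Psme1 and Psme2 products, which form the PA28 activator. These changes alter the peptides offered to MHC class I molecules. Blood cells, in contrast to fibroblasts, make the immunoproteasome without induction.

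The promoters of 4 genes are shown because these genes lie on either side of the exchange of catalytic subunits, with the RefSeq sequence of build GRCm38.p6 in the direction of transcription. The gene counts themselves rest on build GRCm39, per the submitters' processing notes, and no coordinate was carried between builds. Promoters were found for 42 of the 50 genes, and the 250 bases before each start were searched on both strands for 5 motifs. These were the interferon-gamma-activated site (GAS, TTCNNNGAA, in 7.02% of 32851 promoters), the IRF element (GAAANNGAAA, 2.98%), the antioxidant response element (TGACNNNGC, 10.2%), the NF-kB site (5.0%) and the CCAAT box (33.8%). Capitals mark a GAS or antioxidant response element, and the motifs and the genes shown were chosen with the expression results and matches known. For Psmb8 and Psmb6 only 30 bases around the match are given, since the Psmb8 window lies within an exon of a longer transcript and that of Psmb6 runs into the gene.
Psmb8, chr17:34198087-34198116, plus strand: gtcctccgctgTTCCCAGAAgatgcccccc
Psmb10, chr8:105938445-105938642, minus strand: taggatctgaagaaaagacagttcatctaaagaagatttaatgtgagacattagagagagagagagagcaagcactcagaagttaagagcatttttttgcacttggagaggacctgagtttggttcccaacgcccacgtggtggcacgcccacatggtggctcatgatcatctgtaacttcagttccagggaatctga
Psmb5, chr14:54618023-54618245, minus strand: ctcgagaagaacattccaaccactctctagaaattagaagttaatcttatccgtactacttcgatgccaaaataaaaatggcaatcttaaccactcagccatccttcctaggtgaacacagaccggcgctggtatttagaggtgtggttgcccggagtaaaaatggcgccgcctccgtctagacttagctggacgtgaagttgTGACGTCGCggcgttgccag
Psmb6, chr11:70525327-70525356, plus strand: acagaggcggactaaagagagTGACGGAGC
The Psmb8 stretch holds a GAS match that begins 97 bases before the start. Psmb5 and Psmb6 each hold an antioxidant response element match, beginning 47 and 9 bases before the start used. The Psmb6 gene is annotated from base 70525324, so its match and its whole printed stretch lie within the gene and not upstream of it. The Psmb10 stretch, which ends 53 bases before the start, holds none of the 5 motifs. Among the 42 genes, a GAS match was found in 2 (Psmb8 and Psmg1) and an IRF element in 3 (Psmd4, Psmd9 and Psmb3). An antioxidant response element was found in 5, an NF-kB site in 3 and a CCAAT box in 15. The IRF element was found in 0 of the 5 interferon-induced genes, Psmb9 included. A match is a description of letters and not of binding, and none of these shares was tested.

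Adult SN raised all 5 interferon-induced genes in cells of both ages. Psmb8, the immune counterpart of Psmb5, stood at 2.39, 5.36 and 3.00 CPM in the 3 adult media libraries and at 185, 178 and 181 CPM in the 3 libraries with adult SN. Every treated library was far above every media library, and the spread among treated libraries was small. The rise was 5.75 ± 0.44 on the log2 scale (SE, limma, adjusted p = 8.94e-09), a 53.7-fold difference of geometric means. In neonatal cells Psmb8 went from 4.98, 1.78 and 1.65 CPM in media to 188, 190.1 and 190.2 CPM, a log2 rise of 6.28 ± 0.44 (limma, adjusted p = 3.76e-09). Without adult media library 2 and neonatal media library 1 these rises were 6.08 and 6.79, both still called.

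Psmb9, which replaces Psmb6, behaved much like it. Its level was 1.56, 3.24 and 1.63 CPM in adult media libraries and 98.3, 95.1 and 96.0 CPM with adult SN, with no overlap. The log2 rise of Psmb9 was 5.58 ± 0.31 in adult cells (limma, adjusted p = 2.12e-10) and 5.99 ± 0.31 in neonatal cells (limma, adjusted p = 1.29e-10), where it went from 1.97, 1.17 and 1.39 CPM to 97.0, 90.3 and 92.9 CPM. Psmb10, which replaces Psmb7, started higher and rose less. It stood at 7.36, 14.1 and 7.66 CPM in adult media libraries against 142, 134.5 and 145.6 CPM with adult SN, a 15.2-fold difference. In neonatal cells Psmb10 stood at 9.55, 6.23 and 5.03 CPM in media against 149, 134 and 136 CPM, a 20.8-fold difference. Neither gene showed overlap between media and adult SN libraries at either age. Over all genes tested, these groups did not overlap for 57.6% in adult and 57.2% in neonatal cells. With each library left out in turn, the log2 rise of Psmb9 ranged from 5.39 to 5.92 in adult and 5.82 to 6.20 in neonatal cells. That of Psmb10 ranged from 3.76 to 4.23 and from 4.18 to 4.64.

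The PA28 subunits Psme1 and Psme2 had a higher starting level and smaller folds. Psme1 was at 26.9, 30.6 and 29.4 CPM in adult media libraries and 182, 178 and 195 CPM with adult SN, and at 31.6, 27.0 and 27.3 CPM against 200.0, 189.7 and 193 CPM in neonatal cells. Psme2 was at 38.9, 50.3 and 44.2 CPM in adult media libraries and 239, 239 and 266.5 CPM with adult SN, and at 52.5, 38.9 and 41.1 CPM against 289, 242 and 256.5 CPM in neonatal cells. Groups did not overlap in any of these 4 comparisons. In adult cells the folds were 6.39 for Psme1 and 5.60 for Psme2, and in neonatal cells they were 6.79 and 5.98. With each library left out in turn, the log2 rise of Psme1 ranged from 2.62 to 2.72 in adult and 2.72 to 2.84 in neonatal cells. That of Psme2 ranged from 2.39 to 2.58 and from 2.49 to 2.71. Summed over the 5 genes, the level rose from 88.9 ± 13.5 to 852 ± 30.5 CPM in adult cells and from 84.1 ± 14.3 to 879 ± 39.2 CPM in neonatal cells (SD, n = 3).

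The size of this adult SN response was not called different between the ages for any of the 5. The log2 difference of responses, neonatal minus adult cells, ranged from 0.09 to 0.53, and 0 of the 5 passed limma's interaction test (also 0 at an unadjusted p under 0.05). T cell marker sums were 1.63 to 3.14 CPM in adult media libraries, 4.87 to 14.6 CPM with adult SN and 4.02 to 4.53 CPM with neonatal SN. In neonatal cells they were 2.09 to 3.96, 6.82 to 7.74 and 2.81 to 4.56 CPM. Leukocyte marker sums were 98.0 to 119 CPM in adult media libraries, 62.9 to 71.7 CPM with adult SN and 82.3 to 104.8 CPM with neonatal SN, and 37.4 to 57.3, 43.0 to 55.7 and 53.6 to 83.2 CPM in neonatal cells. These sums were mostly Lyz2, which was lower with adult SN at both ages. Of the 7 leukocyte markers 4 lay higher in every adult SN than in every media library of adult cells, and 3 in neonatal cells. At each age 1 lay lower. Of all genes, 57.6% in adult and 57.2% in neonatal cells were separated in either direction, so these counts are not set apart from other genes. Ptprc, the pan-leukocyte antigen, was at 0.787 to 3.71 CPM in adult media libraries and 5.14 to 13.2 CPM with adult SN, and at 0.425 to 1.06 and 6.25 to 9.61 CPM in neonatal cells. The mean log2 CPM of the list was 1.80 to 2.16 in adult media libraries and 2.56 to 2.76 with adult SN, and 0.84 to 1.39 and 2.29 to 2.56 in neonatal cells. Of the 4 T cell markers measured, 2 lay higher in every adult SN than in every media library of adult cells, and 3 in neonatal cells. At each age 0 lay lower, against the same shares of all genes. Cd4 rose from a mean of 0.529 to 5.19 CPM in adult and from 0.220 to 3.38 CPM in neonatal cells. The T cell kinase Lck was at the table's lowest value in 2 of 18 libraries. The part that carried-over cells, or the changed fibroblast markers (most lower, Dcn higher), take in these levels was not tested. In bulk RNA fewer cells of a type and less RNA per cell cannot be told apart.

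**Figure D1:**
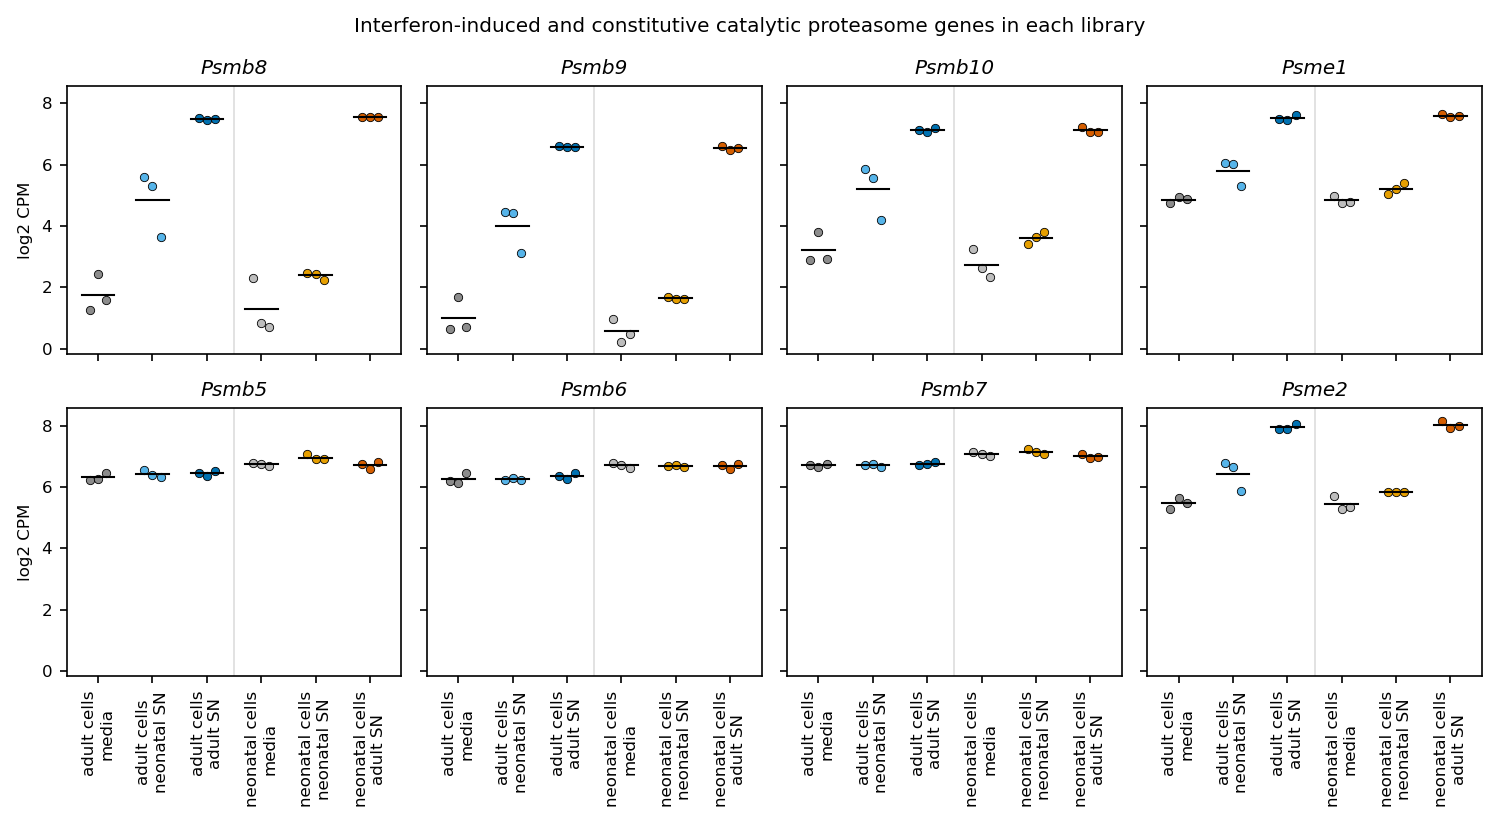
Level in log2 CPM of the 5 interferon-induced genes and the 3 constitutive catalytic genes in the 6 groups, where each point is a library and each line a group mean. Psmb8 and Psmb9 lie below 6 CPM in all media libraries and at 90.3 CPM or more in all adult SN libraries, and library 3 of adult cells with neonatal SN lies below the other 2 of its group in all 5 induced panels.

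Neonatal SN raised the same 5 genes in adult cells, by less. Psmb8 reached 48.3, 39.8 and 12.4 CPM, Psmb9 reached 21.8, 21.6 and 8.64 CPM and Psmb10 reached 57.6, 47.6 and 18.4 CPM. Library 3 was the lowest of its group in each case, yet all 3 libraries stayed above every adult media library. Groups did not overlap for 40.9% of all genes in this comparison. The log2 rises were 3.09 ± 0.44 for Psmb8 (limma, adjusted p = 5.11e-05), 2.98 ± 0.31 for Psmb9 (limma, adjusted p = 2.15e-06) and 2.00 ± 0.33 for Psmb10 (limma, adjusted p = 0.000249). Psme1 reached 67.0, 65.7 and 39.4 CPM and Psme2 reached 110.3, 100.5 and 58.7 CPM, which were 1.93-fold and 1.96-fold above media. All 5 were also called when library 3 was left out, with log2 rises of 3.70 for Psmb8, 3.43 for Psmb9 and 2.50 for Psmb10 and folds of 2.29 for Psme1 and 2.38 for Psme2.

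In neonatal cells the neonatal SN response of these genes was small. Psmb8 was at 5.53, 5.46 and 4.72 CPM, overlapping the media libraries through neonatal media library 1. Psmb9 was at 3.23, 3.09 and 3.06 CPM, above all media libraries, and Psmb10 at 10.6, 12.4 and 14.0 CPM was above them too. Psme1 at 33.1, 36.8 and 42.8 CPM and Psme2 at 57.2, 57.5 and 57.1 CPM also lay above every neonatal media library, in a comparison where groups did not overlap for 34% of all genes. Psmb9 was the one gene of the 5 that limma called, with a log2 rise of 1.09 ± 0.31 (adjusted p = 0.0221), and this call was lost without neonatal media library 2 or 3 or neonatal SN library 1 or 2 and under quantile normalization (0.80, adjusted p = 0.0655). Psmb8 differed by 1.10 ± 0.44 (adjusted p = 0.094), Psmb10 by 0.87 ± 0.33 (adjusted p = 0.080), Psme1 by 0.39 ± 0.15 (adjusted p = 0.0879) and Psme2 by 0.39 ± 0.17 (adjusted p = 0.139), all 5 at an unadjusted p under 0.05. The libraries that stood apart bear on this. Without neonatal media library 1 the log2 differences were 1.61 for Psmb8 and 1.13 for Psmb10 and both were called. Without library 3 of adult cells with neonatal SN, which enters only through the common estimate of the spread, all 5 were called, with an adjusted p of 0.0286 or less.

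The estimated neonatal SN response of the 5 genes was smaller in neonatal than in adult cells in each case, but no difference passed the test with all libraries. The log2 difference of responses was -1.99 ± 0.62 for Psmb8 (limma, adjusted p = 0.142), -1.90 ± 0.44 for Psmb9 (adjusted p = 0.0535), -1.13 ± 0.47 for Psmb10 (adjusted p = 0.292), -0.56 ± 0.21 for Psme1 (adjusted p = 0.242) and -0.58 ± 0.25 for Psme2 (adjusted p = 0.297), and all 5 had an unadjusted p under 0.05. Leaving out library 3 of adult cells with neonatal SN, the same differences were -2.60, -2.34, -1.63, -0.81 and -0.86, and limma called all 5 (adjusted p between 0.0036 and 0.0273). Without it 6 of the 50 members passed this interaction, the sixth being Psma5, against 0 with it. Of all genes tested, 0.855% passed with all libraries.

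Set against each other directly, the 2 supernatants differed for all 5 genes at both ages, against 28.6% of all genes called in adult and 32.4% in neonatal cells. In adult cells the levels with neonatal SN were lower than with adult SN by 6.31-fold for Psmb8, 6.04-fold for Psmb9, 3.81-fold for Psmb10, 3.32-fold for Psme1 and 2.86-fold for Psme2. Without library 3 of adult cells with neonatal SN these folds were 4.14, 4.44, 2.69, 2.79 and 2.35. In neonatal cells they were lower by 36.3-fold, 29.9-fold, 11.4-fold, 5.20-fold and 4.57-fold in the same order. The 5 were also lower in neonatal than in adult cells under neonatal SN, by 5.51-fold for Psmb8, 5.11-fold for Psmb9, 3.02-fold for Psmb10, 1.49-fold for Psme1 and 1.51-fold for Psme2, and without that library by 8.38-fold, 6.95-fold, 4.28-fold, 1.78-fold and 1.84-fold. Between the ages under neonatal SN 29.8% of all genes were called, 12.3% being lower in neonatal cells. The Psme2 call (log2 difference -0.60 ± 0.17, limma, adjusted p = 0.0155) was lost without library 1 or 2 of adult cells with neonatal SN, at -0.42 and -0.49. In media and in adult SN, by contrast, limma called 0 of the 5 between the ages, and 0 had an unadjusted p under 0.05, so neither direction is given for them there. The share of all genes called between the ages was 28.6% in media and 20.6% in adult SN. These comparisons share their media or SN libraries and are not independent of one another.

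The constitutive catalytic genes Psmb5, Psmb6 and Psmb7 were not called in the response to either supernatant with the values as deposited. Psmb5, which carries the chymotrypsin-like activity, was at 75.3, 76.4 and 87.5 CPM in adult media libraries, 88.0, 81.5 and 91.9 CPM with adult SN and 93.4, 84.0 and 81.1 CPM with neonatal SN. Psmb6, which carries the caspase-like activity, was at 74.0, 69.6 and 88.9 CPM, then 82.8, 77.6 and 87.8 CPM, then 74.6, 79.1 and 75.4 CPM in the same order. Psmb7, which carries the trypsin-like activity, was at 106, 99.7 and 109 CPM, then 105, 108 and 113 CPM, then 104, 107.5 and 102 CPM. The 3 treatments overlapped for each gene. In neonatal cells Psmb5 was at 109, 109 and 104 CPM in media, 109, 97.1 and 112 CPM with adult SN and 134, 119.7 and 121 CPM with neonatal SN. Psmb6 was at 111, 106 and 98.7 CPM, then 106, 97.4 and 108 CPM, then 104, 105 and 100.1 CPM. Psmb7 was at 141, 136 and 129 CPM, then 136, 124 and 127 CPM, then 150.3, 142 and 135 CPM. In neonatal cells Psmb5 alone had neonatal SN libraries that all lay above those of both other treatments.

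Limma called 0 of these 3 genes in any of the 4 comparisons of a supernatant with media, and 0 had an unadjusted p under 0.05 except Psmb5 in neonatal cells with neonatal SN (log2 difference 0.22 ± 0.08, adjusted p = 0.0652). The shares of all genes called were 52% and 27.3% in adult cells with adult and neonatal SN, and 47.8% and 18.3% in neonatal cells. Under TMM scaling and quantile normalization Psmb7 was called lower in neonatal cells with adult SN, at -0.18 and -0.15 (limma, adjusted p = 0.0243 and 0.0388). Their log2 differences with adult SN were 0.13 ± 0.08, 0.10 ± 0.08 and 0.05 ± 0.06 in adult cells and -0.02 ± 0.08, -0.02 ± 0.08 and -0.07 ± 0.06 in neonatal cells, for Psmb5, Psmb6 and Psmb7. Psmb5 was higher with neonatal than with adult SN in neonatal cells, by 0.24 ± 0.08 (limma, adjusted p = 0.0262), a call lost without adult SN library 2 (0.18) or neonatal SN library 1 (0.19).

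Taking each immune subunit with the subunit it replaces, within a library and therefore free of library scaling, the share of immune transcripts was higher in every adult SN library than in any media library. Per kilobase of median coding transcript length, Psmb8 made up 3.93% ± 1.78 of the Psmb8 and Psmb5 transcripts in adult cells in media (SD, n = 3) and 65.4% ± 1.17 with adult SN. In neonatal cells it went from 2.28% ± 1.46 to 61.9% ± 1.79. With neonatal SN it was 31.9%, 30.0% and 12.2% in the adult libraries, and 3.66% ± 0.281 in neonatal cells. The share of Psmb9 with Psmb6 went from 4.11% to 63.8% in adult and from 2.11% to 57.6% in neonatal cells, and that of Psmb10 with Psmb7 from 7.59% to 53.4% and from 4.29% to 48.8%. With neonatal SN these 2 shares were 24.9% and 24.9% in adult cells and 4.37% and 7.15% in neonatal cells. Without library 3 the shares of adult cells with neonatal SN were 30.9%, 29.9% and 30.5% for the 3 pairs. Without adult media library 2 and neonatal media library 1 those in media were 2.91%, 2.88% and 5.84% in adult and 1.43%, 1.86% and 3.62% in neonatal cells. A share depends on the length used. With the longest transcript in place of the median, Psmb8 made up 53.5% and Psmb9 40.8% in adult cells with adult SN, and 49.8% and 34.7% in neonatal cells, so which of a pair was the more abundant depended on the length for Psmb8 in neonatal cells and for Psmb9 at both ages.

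The log2 ratio of each pair, which needs no length, was higher with adult SN than in media by 5.62, 5.48 and 3.87 in adult cells and by 6.30, 6.01 and 4.45 in neonatal cells for Psmb8 over Psmb5, Psmb9 over Psmb6 and Psmb10 over Psmb7. With neonatal SN the differences were 2.98, 3.00 and 2.00 in adult cells and 0.88, 1.11 and 0.80 in neonatal cells. Without library 3 those in adult cells were 3.54, 3.43 and 2.48. Without neonatal media library 1 those in neonatal cells were 1.38, 1.28 and 1.02. All of these separated the 3 treated from the 3 media libraries apart from Psmb8 over Psmb5 in neonatal cells with neonatal SN. An exact two-sided permutation test gave p = 0.1 for each that separated, the smallest that 3 against 3 libraries allow, and p = 0.3 for the one that did not (0.115 and 0.3 after Benjamini-Hochberg adjustment over 15 tests). Between the ages in media the ratios were lower in neonatal cells by log2 differences of -0.90, -0.90 and -0.84, with overlap for Psmb8 over Psmb5 (exact p = 0.3). These age differences depended on the media libraries that stood apart. They were -0.54, -0.49 and -0.50 without adult media library 2, -1.40, -1.07 and -1.06 without neonatal media library 1, and -1.04, -0.66 and -0.73 without both.

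**Figure D2:**
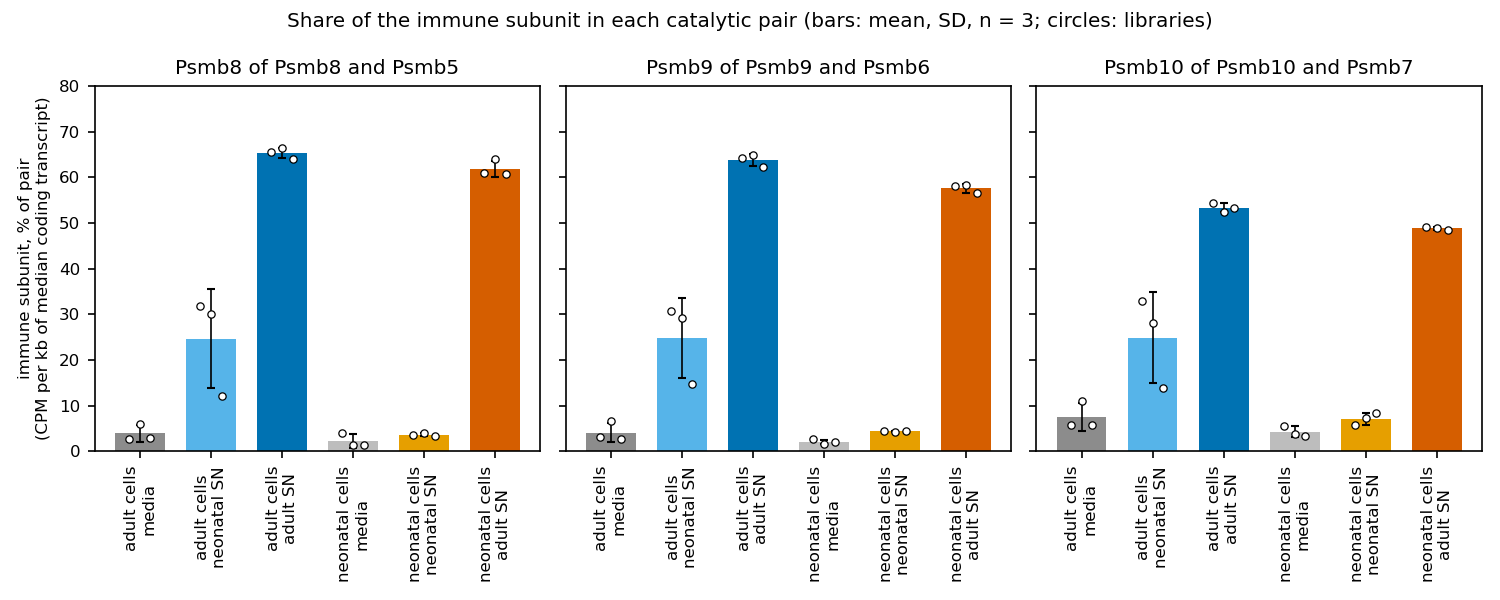
Share in percent, per kilobase of median coding transcript length, of the immune subunit in each of the 3 catalytic pairs across the 6 groups (bars are means, error bars SD, n = 3, circles libraries). The shares with adult SN lie between 48.8% and 65.4% on average, those in media between 2.11% and 7.59%.

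Ranked per kilobase of median coding transcript length by group mean, Psmb8 moved from rank 46 in adult media to rank 4 with adult SN, Psmb9 from 47 to 5, Psmb10 from 43 to 15, Psme1 from 32 to 3 and Psme2 from 25 to 2. In neonatal cells the moves were from 45 to 4, from 46 to 7, from 44 to 21, from 35 to 3 and from 28 to 2. With neonatal SN the 5 stood at ranks 35, 38, 39, 18 and 9 in adult cells and at 45, 46, 44, 31 and 26 in neonatal cells. Psmd2, a scaffold subunit of the 19S base, held rank 1 in all 6 groups with 539 to 705 CPM per kilobase. With the longest transcript it had 120 to 157 CPM per kilobase and stood at rank 4 with adult SN at both ages and at rank 1 in the other groups, Psme2 being first with adult SN. Psmb8, Psmb9 and Psmb10 then stood at ranks 7, 21 and 8 in adult and 10, 24 and 13 in neonatal cells with adult SN, so ranks depend on the length used. At the other end Psmb11, normally confined to thymic cortical epithelium, never exceeded 5.48 CPM, and Psma8, a germ-cell alpha subunit, never exceeded 1.59 CPM.

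The remaining structural subunits of the core and cap also shifted with adult SN, by small amounts. Over all 50 genes limma called 31 (62%) in adult cells with adult SN, 30 higher and 1 lower, against 52% of all genes tested (28.2% higher and 23.9% lower). Among the 31 constitutive core and 19S subunits, Psma8 set aside, 20 rose and 0 fell, with a median log2 difference of 0.25 against 0.03 for all genes. Of the 8 alpha subunits 7 rose (median 0.47), of the 4 other beta subunits 3, of the 11 non-ATPase cap subunits 9 and of the 6 ATPases 1. Psma5 led the alpha ring, at 60.7, 66.7 and 65.4 CPM in media and 134, 123 and 126.5 CPM with adult SN, a log2 rise of 0.99 ± 0.07 (limma, adjusted p = 7.93e-09). Psma7 rose by 0.68 ± 0.09, Psmb4 by 0.48 ± 0.06, the lid subunit Psmd8 by 0.84 ± 0.09 and the lid subunit Psmd11 by 0.50 ± 0.05. The summed level of the 31 subunits was 3081 ± 182 CPM in media and 3726 ± 142 CPM with adult SN (SD, n = 3).

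In neonatal cells with adult SN limma called 26 of 50 (52%), 24 higher and 2 lower, a share close to the 47.8% of all genes. Of the 31 constitutive subunits 15 rose and 1 fell (median log2 difference 0.19, against 0.07 for all genes). The alpha ring again led, with 7 of 8 higher, among them Psma5 by 0.68 ± 0.07 and Psma6 by 0.39 ± 0.06. The faller was Psmd6, a lid subunit, at -0.17 ± 0.06 (limma, adjusted p = 0.0324), a call lost without media library 1 or 2 or adult SN library 2 or 3. The number of small rises depended on scaling. With TMM scaling or quantile normalization, adult cells had 16 of the 31 higher and 0 lower under either, whereas neonatal cells had 5 higher (Psma2, Psma5, Psma6, Psmd3 and Psmd8) and 3 lower (Psmb7, Psmc5 and Psmd6) under either, and 3 of 8 alpha subunits. These scalings also moved the median of all genes, in adult cells with adult SN from 0.03 to -0.03 and -0.10 and in neonatal cells from 0.07 to -0.05 and -0.11. All-gene calls went from 4052 higher and 3438 lower to 3723 and 3943, or 3139 and 4395, in adult cells. In neonatal cells they went from 4074 and 2801 to 3419 and 3871, or 2711 and 4098. The 5 interferon-induced genes kept their calls in these comparisons.

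Neonatal SN moved few structural subunits. In adult cells limma called 8 of 50 (16%), all higher, against 27.3% of all genes: the 5 induced genes, Psma5 (0.36 ± 0.07), Psma6 (0.19 ± 0.06) and the chaperone Psmd10. In neonatal cells it called 3 of 50 (6%), all higher, against 18.3% of all genes (10.7% higher and 7.62% lower): Psmb9, Psma6 (0.20 ± 0.06) and Psmd10. Both Psma6 calls were lost under TMM scaling, that in neonatal cells also under quantile normalization, and both without neonatal SN library 1 or 2 of the same cells, and also without adult media library 2 and neonatal media library 3 respectively. Between the supernatants, 20 members were lower with neonatal than with adult SN in adult cells and 0 higher, against 28.6% of all genes called. In neonatal cells 16 were lower and 4 higher, against 32.4% of all genes (13.7% higher and 18.7% lower). This last count was 12 in all without neonatal cells' adult SN library 1, 13 without their neonatal SN library 1 or 3, and 5 higher with 11 lower under TMM scaling.

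**Figure D3:**
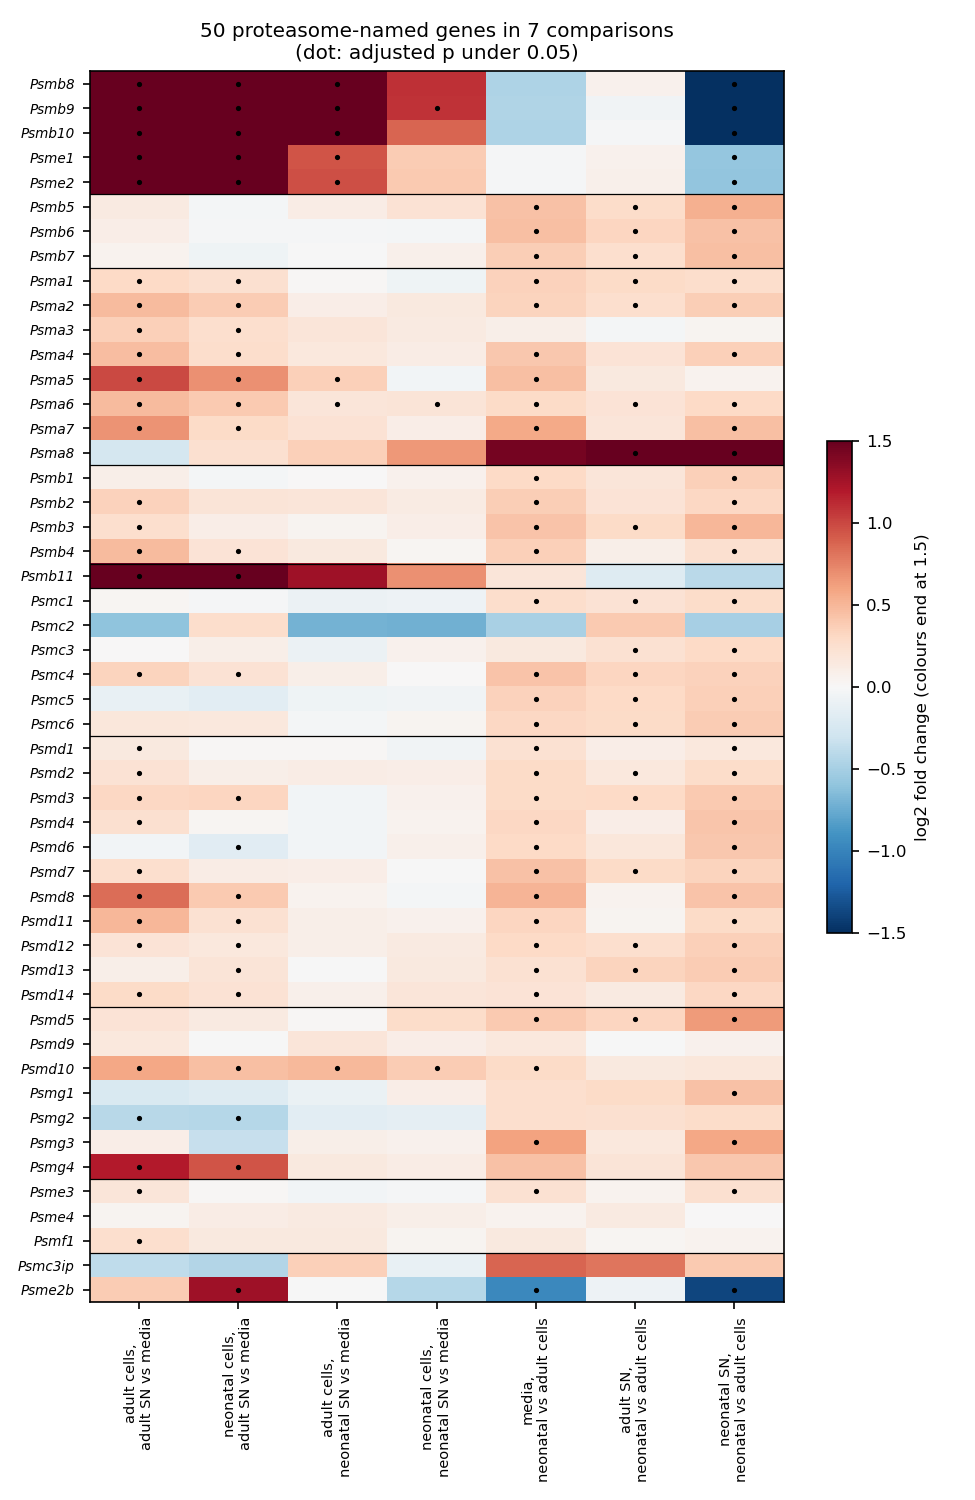
Log2 differences of the 50 genes (rows, grouped by role) in 7 comparisons (columns), with dots where limma's adjusted p was under 0.05 and colours ending at 1.5 in either direction. The 5 interferon-induced rows reach the end of the scale with adult SN, while the Psmb5, Psmb6 and Psmb7 rows carry dots in the columns of cell age and, with the values as deposited, none in those of supernatant against media (Psmb7 was called lower in neonatal cells with adult SN under TMM and quantile scaling).

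Among the assembly chaperones Psmd10, which helps to build the ATPase ring, rose in all 4 comparisons of a supernatant with media. It stood at 27.1 ± 0.536 CPM in adult media, 40.8 ± 3.74 CPM with adult SN and 38.1 ± 1.01 CPM with neonatal SN (SD, n = 3), and at 33.1 ± 2.20, 45.0 ± 1.75 and 42.9 ± 2.52 CPM in neonatal cells. Its log2 rises were 0.58 ± 0.08 and 0.49 ± 0.08 in adult cells and 0.45 ± 0.08 and 0.38 ± 0.08 in neonatal cells (limma, adjusted p between 8.48e-06 and 0.00257). Psmg4, a chaperone of the alpha ring, rose with adult SN by 1.19 ± 0.26 and 0.94 ± 0.26 in adult and neonatal cells, from 3.60 ± 0.699 to 8.17 ± 0.930 CPM and from 4.83 ± 0.323 to 9.35 ± 1.47 CPM. Its call in neonatal cells was lost under quantile normalization (0.67, adjusted p = 0.0522). Psmg2, which pairs with Psmg1 in the same process, fell by 0.41 ± 0.16 and 0.42 ± 0.16 on the log2 scale (limma, adjusted p = 0.0379 and 0.0364). The Psmg2 call in adult cells held when media library 2 or adult SN library 3 was the one left out, and that in neonatal cells when adult SN library 1 was, the other omissions giving adjusted p up to 0.146. The Psmd10 calls held with each library left out. The other 4 chaperones were not called in these adult SN comparisons.

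Of the activators and inhibitors, the nuclear PA28 subunit Psme3 rose with adult SN in adult cells by 0.18 ± 0.06 (limma, adjusted p = 0.018) and the inhibitor Psmf1 by 0.26 ± 0.10 (adjusted p = 0.0341). Both calls were lost under TMM and quantile scaling, and without media library 3 or adult SN library 1 or 3, and that of Psmf1 also without media library 1. The activator Psme4 stayed between 103 and 126 CPM in all 18 libraries and was called in no comparison. Psmb11 rose with adult SN by 1.95 ± 0.57 in adult cells (limma, adjusted p = 0.00821) and by 1.57 ± 0.57 in neonatal cells (adjusted p = 0.0302), from a mean of 0.788 to 3.01 CPM and from 0.750 to 2.23 CPM. The Psmb11 call was lost without adult media library 3 or adult SN library 2 in adult cells, without any of the 6 libraries in neonatal cells, and under quantile normalization in both. Psma8 was higher in neonatal than adult cells with adult SN (1.02 against 0.297 CPM) and with neonatal SN (1.35 against 0.476 CPM), each value resting on few reads and each call lost when most of the 6 libraries compared were left out in turn, that with adult SN also under quantile normalization. The ATPase Psmc2 varied most among libraries of a group, from 12.3 to 109.8 CPM in all, and within adult cells with neonatal SN it was at 94.9, 109.8 and 12.3 CPM, library 3 being the low one. Psmc2 was called in no comparison with all libraries. Psmc3ip was called in none, and Psme2b rose with adult SN in neonatal cells by 1.27 ± 0.30, a call lost under quantile normalization (0.70, adjusted p = 0.0741).

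The second axis of the data was the age of the cells, and here the constitutive subunits moved and the immune ones, outside neonatal SN, did not pass the test. In media, limma called 33 of the 50 genes between neonatal and adult cells, 32 higher in neonatal cells and 1 lower (Psme2b, a call lost in 4 of the 6 fits that left out 1 library and under quantile normalization), against 28.6% of all genes called (16.7% higher). Of the 31 constitutive subunits 28 were higher and 0 lower, with a median log2 difference of 0.32 against 0.01 over all genes. Psma3, Psmc2 and Psmc3 were the 3 not called. All 3 constitutive catalytic genes were higher in neonatal cells, Psmb5 by 0.43 ± 0.08, Psmb6 by 0.45 ± 0.08 and Psmb7 by 0.37 ± 0.06 (limma, adjusted p = 0.000518, 0.00052 and 0.000177). Neonatal media libraries lay above all adult media libraries for each, at 98.7 CPM or more against 88.9 CPM or less for Psmb6, and groups did not overlap for 42.5% of all genes. The largest called differences among the alpha and cap subunits were in Psma7 (0.57 ± 0.09) and Psmd8 (0.51 ± 0.09), and among the chaperones in Psmg3 (0.60 ± 0.14).

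The age difference was also present with the supernatants, though it varied in extent. With neonatal SN limma called 39 of 50, 33 higher and 6 lower in neonatal cells, against 29.8% of all genes, and 28 of the 31 constitutive subunits were higher with a median of 0.35 (all genes 0.01). The 6 lower were the 5 interferon-induced genes and Psme2b. Without library 3 of adult cells with neonatal SN, 26 of the 31 were higher and Psmc2 became lower. With adult SN 19 of 50 were called, all higher, against 20.6% of all genes (14.7% higher and 5.86% lower), and 17 of the 31 (median 0.22, all genes 0.08). That count was 12 without adult cells' adult SN library 1, 9 without their library 2 and 10 without neonatal cells' adult SN library 1. It was 11 under quantile normalization, where Psmb5 was not called, and 2 under TMM scaling, where Psmd13 was the 1 constitutive subunit called and Psmb5, Psmb6 and Psmb7 were no longer called. The summed level of the 31 subunits was 3081 ± 182 CPM in adult and 3825 ± 157 CPM in neonatal cells in media, 3726 ± 142 and 4268 ± 140 CPM with adult SN, and 3195 ± 144 and 3955 ± 105 CPM with neonatal SN (SD, n = 3). Leaving out adult media library 2 and neonatal media library 1, 20 of the 31 were called higher in neonatal cells in media, with a median of 0.26. In media 4 of 6 endothelial markers lay lower and 1 (Kdr) higher in every neonatal than in every adult library. Of 7 leukocyte markers 3 lay lower and 0 higher, against 42.5% of all genes separated in either direction. The part in these age differences of endothelial and leukocyte cells, whose marker sums were higher in adult cells in media, was not tested. Fibroblast markers also differed between the ages, Scx being higher and Pdgfra lower in neonatal cells, and their part was not tested either.

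**Figure D4:**
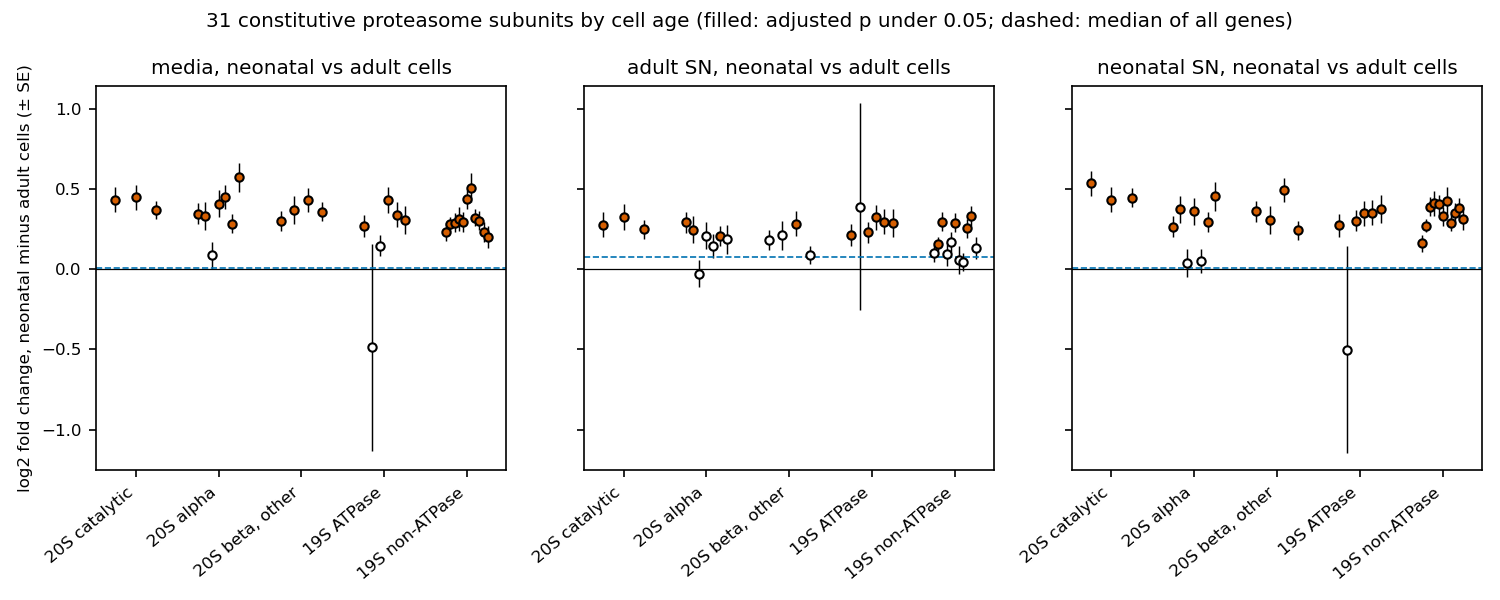
Log2 difference, neonatal minus adult cells, of the 31 constitutive core and 19S subunits in media, with adult SN and with neonatal SN (points with SE, filled where limma's adjusted p was under 0.05, dashed line the median of all genes). Most subunits lie above 0, that is higher in neonatal cells, in media and with neonatal SN, where 28 of 31 were called, against 17 with adult SN.

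A single member differed between the ages in its response to adult SN. Psmd8 stood at 147, 125.5 and 164 CPM in adult media libraries and 274, 239 and 266 CPM with adult SN, against 221, 212 and 187 CPM and 271, 265 and 272 CPM in neonatal cells. The adult SN levels of the ages overlapped while the media levels did not, neonatal cells being higher in media. The log2 rise was 0.84 ± 0.09 in adult and 0.39 ± 0.09 in neonatal cells, a difference of -0.45 ± 0.12 (limma interaction, adjusted p = 0.0478), in a comparison where 4.55% of all genes were called. Psmd8 was joined by Psmb4 and Psmd11, both also smaller in neonatal cells, under TMM scaling, under quantile normalization and without library 3 of adult cells with neonatal SN. The Psmd8 call held without adult media library 3, adult SN library 2 of adult cells or neonatal media library 3, and was lost without any of the other 9 libraries of the 12 involved, at differences of -0.35 to -0.47 and adjusted p up to 0.119. Without adult media library 2 and neonatal media library 1 together the difference was -0.30 (adjusted p = 0.221).

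Outside the 50, the regulators Irf1 and Nlrc5 were higher with adult than with neonatal SN at both ages. Irf1, a transcription factor that binds the Psmb9 promoter, rose by 4.58 ± 0.21 on the log2 scale with adult SN and 1.82 ± 0.21 with neonatal SN in adult cells, and by 5.03 ± 0.21 and 0.94 ± 0.21 in neonatal cells, all called by limma. Nlrc5, a transactivator of MHC class I genes, rose in all 4, by 1.71 ± 0.40 in the last (1.09 without neonatal media library 2). Of 7 genes that carry peptides onward (Tap1, Tap2, Tapbp, Erap1, B2m, H2-K1 and H2-D1) all 7 rose with adult SN at both ages, against 52% of all genes called in adult and 47.8% in neonatal cells. With neonatal SN 6 rose in adult cells, against 27.3% of all genes, and 2 in neonatal cells (Erap1 and H2-K1), against 18.3%. Tap1, the exception in adult cells, was called there without library 3 (0.74), and Tapbp was not without media library 3 or neonatal SN library 1 or 2. In neonatal cells the Erap1 call was lost in 5 of the 6 fits that left out 1 library, and 5 of the 7 were called without library 3 of adult cells with neonatal SN. All 7 were lower in neonatal than adult cells under neonatal SN, against 29.8% of all genes called, 12.3% being lower.

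Of 13 measured genes for proteasome-associated factors, 4 rose and 1 fell with adult SN in adult cells, and 2 rose and 2 fell in neonatal cells, shares of 38.5% and 30.8% that lay below those of all genes (52% and 47.8%). The fallers in neonatal cells numbered 5 under TMM scaling and 4 under quantile normalization. Pomp, the maturation factor of new 20S cores, rose by 0.87 ± 0.09 in adult and 0.58 ± 0.09 in neonatal cells (limma, adjusted p = 6.63e-07 and 7.01e-05). The deubiquitinases Uchl5 and Usp14 rose in adult cells by 0.93 and 0.55, and Usp14 by 0.34 without adult SN library 2. Between the ages in media 5 of the 13 were higher and 1 lower in neonatal cells (46.2%, against 28.6% of all genes), the higher including Pomp (0.37) and the ubiquitin receptor Adrm1 (0.39). Without adult media library 2 and neonatal media library 1, 3 were higher and 0 lower, and Pomp was not called (0.27, adjusted p = 0.112). Nfe2l1, which encodes the transcription factor NRF1 that drives constitutive subunit genes when proteasome activity falls, was lower in neonatal cells in media by a log2 difference of -0.40 and with neonatal SN by -0.44. With adult SN it fell by 0.33 ± 0.08 in adult cells (limma, adjusted p = 0.00327) and differed by 0.03 ± 0.08 in neonatal cells (adjusted p = 0.785). Its relative Nfe2l2 rose with adult SN by 0.65 in adult and 0.68 in neonatal cells. The other genes of this axis, the protease gene Ddi2 and the glycanase gene Ngly1, were called higher (0.25) and lower (-0.48) in adult cells with adult SN, the first lost under TMM and quantile scaling and both lost without some libraries.

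Of 9 genes for ubiquitin, its E1 enzymes and ubiquitin-like modifiers, 5 rose with adult SN in adult cells (55.6%, close to the 52% of all genes) and 5 rose and 1 fell in neonatal cells (66.7%, against 47.8%), where 3 fell under TMM or quantile scaling. The ubiquitin-like modifier Ubd, which targets proteins to the proteasome, was called higher with adult SN at both ages. It was at the table's lowest value in 3 adult and 2 neonatal media libraries and at 0.184 CPM in the other neonatal one, near the level of 3 reads. The size of its rises is therefore rough. The highest 3-read floor of the media libraries was 0.184 CPM in adult and 0.19 CPM in neonatal cells. Against it the geometric mean with adult SN was 53.0-fold higher in adult and 10.5-fold higher in neonatal cells. These folds are no strict bounds, since that other neonatal media library lay above the lowest value. With adult SN its level was 7.82, 8.76 and 13.6 CPM in adult and 3.19, 1.95 and 1.28 CPM in neonatal cells, a log2 difference of -2.29 ± 0.47 (limma, adjusted p = 0.00197). Isg15, a ubiquitin-like protein, rose by 4.04 and 4.18, and Uba7, its E1 enzyme, by 3.78 and 3.88. Isg15 is 1 of the 10 type I interferon response genes by which some media libraries stood apart. In media it was at 2.73, 12.65 and 2.81 CPM in adult and 28.6, 1.86 and 0.757 CPM in neonatal libraries. The size of its rises therefore depends on those libraries, and values without them are not given. The ubiquitin gene Ubb rose in all 4 comparisons of a supernatant with media, by 0.56, 0.18, 0.55 and 0.23 for adult cells with adult and neonatal SN and neonatal cells with adult and neonatal SN. Both calls with neonatal SN were lost under TMM and quantile scaling and in 4 of the 6 fits that left out 1 library.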

How the data were processed

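Expression was measured by RNA-seq of 18 libraries. The deposited table holds log2 CPM per gene, made by the authors with kallisto and limma 3.56.2 on GRCm39, per the submitters' processing notes; the counting annotation, strandedness and filters are not given. Every gene of the table reached 1 CPM in at least 3 libraries. The lowest value, -2.98, marks an offset in the log scale, so fold changes of low genes are understated. Depth was estimated from the spacing of low values, assuming an offset of 2 reads. At the depth chosen 10.8 to 21.2% of low values were whole reads within 0.02 reads, so counts were not recovered and no count model was used. Limits of 3 reads cover counting error only.

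The log2 CPM values were fitted as deposited with limma 3.58.1 in R 4.3.3 (6 group means, trended empirical Bayes, 11 contrasts, two-sided, Benjamini-Hochberg over 14391 genes, threshold 0.05). The spread had 12 residual and 4.59 prior degrees of freedom. Pair ratios were compared with exact permutation tests in scipy 1.17.1. Lengths came from GENCODE M21 transcripts, and the copy was aligned with blastn 2.17.0. Members were described by role, naming in each family up to 2 with the largest called rise or fall in a comparison, and others where a count was small. The members, gene lists and tests were chosen with earlier results of these data known. Deviations of same-numbered libraries had a median correlation of -0.0082, and the numbers were not used as a block in the fit reported. Alternatives were TMM and quantile scaling, an added 0.1 or 1 CPM, keeping genes with 5 CPM in 3 libraries, no trend and array weights. Further ones were fits of the compared groups alone, the replicate number as a term, a limit of 2-fold and each library omitted. TMM scaling here was a variant without counts or precision weights. It took the plain mean of log2 CPM differences from the mean of all libraries, with trims of 0.3 (differences) and 0.05 (levels) at each end. Leaving library 3 of adult cells with neonatal SN out of comparisons it is not in, the pathway genes under scaling or without a library, and ranks with the longest transcript were chosen after seeing the data. One gene of the regulator list is not reported here.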

Additional observations from a re-analysis of the deposited data

Results flagged for a closer look

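The response of Psmd8, a 19S lid subunit, to adult SN differed between cell ages by -0.45 on the log2 scale, neonatal minus adult cells (SE 0.12, limma interaction, adjusted p = 0.0478). It rose in both ages, by 0.84 in adult and 0.39 in neonatal cells, and neonatal cells started higher in media. The difference was the one member result past the threshold in a test between the responses of the 2 cell ages, and it sat close to that threshold. The call was lost in 9 of the 12 fits that left out a library of the 4 groups.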

How the results depend on the processing

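Most counts of members called kept within 1.5 times of their reported value. Over all alternatives 313 counts and pair results were taken as kept and 54 were not, all 54 being counts of members. A pair result was taken as kept wherever its sign held, whatever its size, so these numbers do not measure how stable the pair results were. Scaling per kilobase, which leaves a pair difference unchanged, was among the alternatives. The interaction counts and the smaller comparisons moved most. For the adult SN interaction (1 as reported) the count was 3 with TMM or quantile scaling, 2 with a pseudocount of 1 CPM or the filter of 5 CPM, 4 with array weights, 0 without the trend, with the 2-fold limit or without adult media library 2 and neonatal media library 1 (both media libraries below), and 0 to 3 with a library left out. For the neonatal SN interaction (0 as reported) it was 1 with quantile scaling, either pseudocount, the filter, array weights or without both media libraries, and 0 to 6 with a library left out. In neonatal cells with neonatal SN (3 as reported) it was 1 with quantile scaling or the 2-fold limit, 7 with array weights, 5 without both media libraries and 1 to 7 with a library left out, 7 being the count without library 3 of adult cells with neonatal SN. In neonatal cells with adult SN (26) it was 17 with quantile scaling. Between ages with adult SN (19) it was 2 with TMM, 11 with quantile scaling and 9 to 19 with a library left out. Between supernatants in neonatal cells (20) it was 12 to 19 with a library left out. The 2-fold limit left 7 and 3 members in adult cells with adult and neonatal SN, 7 in neonatal cells with adult SN, 6 and 6 between supernatants in adult and neonatal cells, and 0, 1 and 5 between ages in media, adult SN and neonatal SN. With a library left out the remaining ranges were 26 to 31, 7 to 11 and 18 to 26 for adult cells with adult SN, adult cells with neonatal SN and neonatal cells with adult SN, 16 to 20 between supernatants in adult cells, and 30 to 33 and 36 to 38 between ages in media and with neonatal SN. The cause of these shifts was not tested.

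Sign changes were limited to differences near 0 that were not called. With TMM scaling Psmb7 was at -0.0034 in adult cells with adult SN, Psmb6 at 0.0662 between supernatants in neonatal cells and 0.0082 in the neonatal SN interaction, and Psmb8, Psme1 and Psme2 at -0.0362, -0.0287 and -0.0191 between ages with adult SN. With quantile scaling Psmb7 was at -0.0132 in adult cells with adult SN, Psmb5 at 0.0286 between supernatants in adult cells and Psmb6 at 0.0516 between supernatants in neonatal cells. Without both media libraries Psmb6 was at 0.0181 and 0.0112 in neonatal cells with adult and neonatal SN and 0.0998 in the interaction. With a library left out, Psmb6 ranged from -0.0886 to 0.0883 in adult cells with neonatal SN, from -0.1162 to 0.0607 in the neonatal SN interaction, from -0.0664 to 0.0237 and from -0.0734 to 0.0112 in neonatal cells with adult and neonatal SN, and from -0.0516 to 0.0224 between supernatants there. Psmb7 ranged from -0.0369 to 0.0256 in adult cells with neonatal SN. Psmb5 ranged from -0.0764 to 0.0255 between supernatants in adult cells and from -0.0652 to 0.0359 in neonatal cells with adult SN. Between ages in media Psme1 ranged from -0.0904 to 0.0225 and Psme2 from -0.1455 to 0.0786, and with adult SN Psmb10 from -0.0603 to 0.0148.

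Fitting only the compared groups left Psme1 and Psme2 uncalled between ages with neonatal SN (adjusted p = 0.0713 and 0.0691, limma). Same-numbered libraries of different groups had correlations of their deviations from -0.16 to 0.22, over 0.1 in 2 of 45 pairs. Those of different number had -0.24 to 0.11, over 0.1 in 3 of 90 pairs. With 3 libraries per group these values cannot tell whether same-numbered libraries share an origin. With the replicate block the counts of members called were 30, 8, 24 and 3 for the 4 comparisons with media (adult cells with adult and neonatal SN, then neonatal cells), 20 and 19 between supernatants in adult and neonatal cells, 33, 19 and 38 between ages in media, adult SN and neonatal SN, and 1 and 0 in the interactions. Depth limits the low members, Psma8 and Psmb11, whose values rest on few reads.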
